A study of Homo sapiens with 11 samples.

Results

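Origin licensing was followed through 10 genes: the 6 subunits of the MCM2 to MCM7 helicase, the loading factors CDC6 and CDT1, the CDT1 inhibitor geminin (GMNN) and ORC1, the largest subunit of the origin recognition complex. They were chosen by name from the known licensing machinery, out of 61566 annotated genes, with earlier results of these data known. All 10 passed the filter on low counts. Poly(A) RNA was sequenced from SK-MEL103, an established human melanoma cell line, after 6 days in 1 of 3 conditions. Cells received 0.5 µM tozasertib, an inhibitor of the Aurora kinases that drive chromosome segregation (n = 3, replicates 1, 2 and 4), 0.25 µM etoposide, a poison of type II topoisomerases that leaves breaks in DNA (n = 4), or the solvent DMSO (n = 4), with medium and drug renewed on day 3. Each drug served in the study as an inducer of senescence, a lasting exit from the cell cycle. All samples come from 1 line. The sources do not say whether replicates were grown separately, and p-values therefore cover only the variation among these samples, possibly technical.

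Licensing prepares a chromosome to be copied exactly once. From late mitosis through G1, ORC bound to DNA recruits CDC6, and CDT1 brings the MCM2 to MCM7 ring, which is loaded around DNA as an inactive pair of rings. At the onset of S phase CDC45 and the GINS complex join the ring and turn it into the active helicase. Relicensing is blocked by geminin, which holds CDT1, and by destruction of CDT1. MCM proteins are widely used as marks of proliferative capacity, because cells that leave the cycle for long lose them.

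Libraries held 27844728 to 56453528 estimated reads assigned to genes for tozasertib, 28506702 to 40114819 for etoposide and 28816211 to 32903994 for DMSO. The deepest library was tozasertib replicate 1, and the fewest reads behind any licensing gene were the 97 on ORC1 in tozasertib replicate 4. Levels within a gene are given as CPM, read counts scaled to library size after TMM normalisation. SOX10, a melanocyte lineage factor, was at 376 to 383 CPM with tozasertib, 317 to 336 CPM with etoposide and 482 to 541 CPM with DMSO, whereas MLANA was at 0 reads throughout and TYR and DCT did not exceed 0.062 and 0.41 CPM. The pigment protein PMEL was at 3.25 to 4.15 CPM with tozasertib, 0.253 to 0.55 CPM with etoposide and 0.187 to 0.603 CPM with DMSO, and was called 11.9-fold higher in tozasertib against DMSO (edgeR adjusted p = 9.56e-07). Of the rest of the 8-gene melanocyte list, MITF and S100B were called higher with both drugs at levels of 10.4 CPM or less, S100A1 did not exceed 0.142 CPM, and SOX10 was called lower with both. SOX10 was the 1 marker of the list at a high level. Of the markers of other cell types, the 6-gene fibroblast list summed to 119 to 123 CPM with tozasertib, 137 to 154 CPM with etoposide and 24.7 to 29.8 CPM with DMSO, nearly all from LUM and COL1A1, with DCN and THY1 at 0.175 CPM or less. The 5-gene keratinocyte list summed to 43.9 to 53.2, 51.8 to 54.4 and 47.9 to 66.6 CPM in the same order. Nearly all of it came from KRT10, with KRT14 at 3.41 CPM or less and KRT5, KRT1 and DSG3 at 0.245 CPM or less. The 5-gene immune list summed to 43.1 to 48.1, 34.7 to 42.2 and 55.6 to 68.1 CPM, nearly all from CD68. In that list PTPRC, CD3E and CD14 were at 0.461 CPM or less and MS4A1 was at 0 reads. DMSO replicates 1 and 4 stood apart in opposite directions in how deviations followed gene length (Spearman rho over genes of -0.48 and 0.40, against -0.08 to 0.22 in the other samples).

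All 10 licensing genes were lower after either drug. With both drugs CDT1 and ORC1 had the largest fold changes of the 10. Among the MCM genes MCM6 had the largest and MCM3 and MCM7 the smallest. In tozasertib against DMSO, 10 of 10 were called lower by edgeR's quasi-likelihood test at an adjusted p under 0.05 (Benjamini-Hochberg over 17039 genes), where 29.4% of all genes tested were called lower. The median log2 fold change of the 10 was -2.14, against 0.02 over all genes. In etoposide against DMSO, 10 of 10 were again called lower, with 30.7% of all genes called lower, and the median was -1.57, against -0.01 over all genes. Both comparisons use the same 4 DMSO samples. For each gene, the highest drug-treated sample lay below the lowest DMSO sample. Summed over the 10 genes, levels were 305 to 339.5 CPM with tozasertib, 379 to 422 CPM with etoposide and 1098 to 1190.1 CPM with DMSO. In bulk RNA, fewer cells that express a gene and less of its RNA per cell cannot be told apart.

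**Figure D1:**
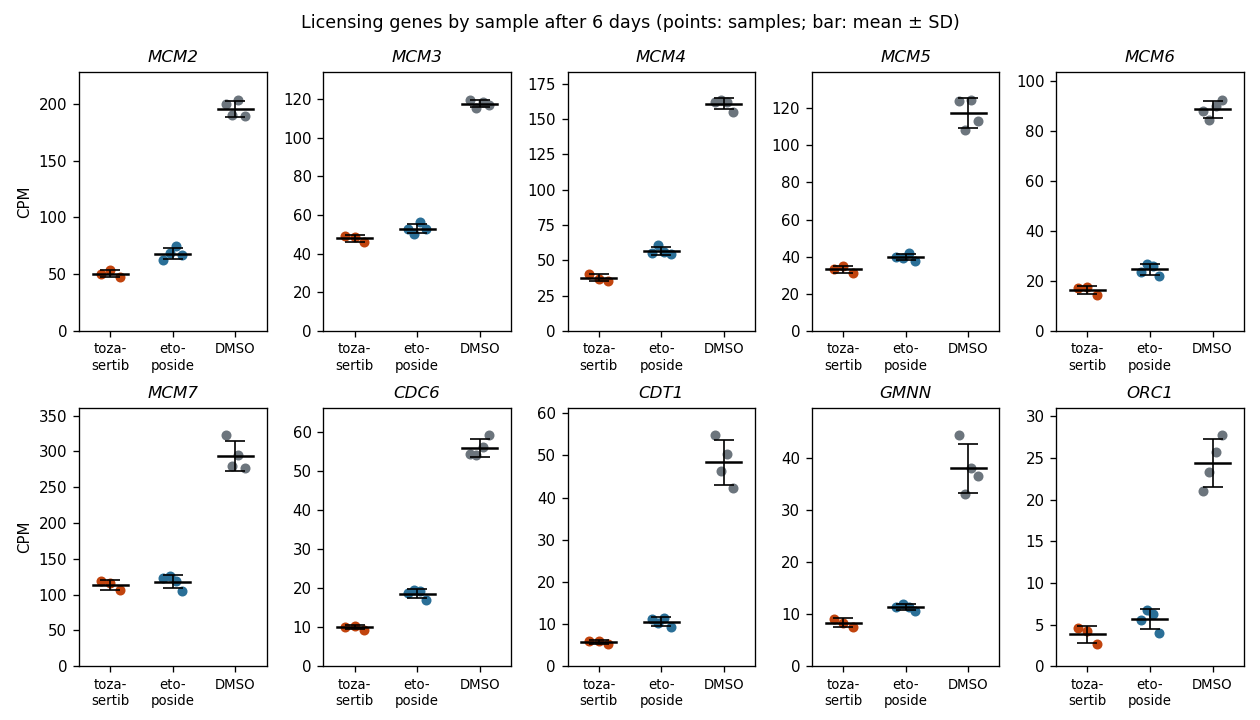
CPM of each licensing gene (vertical axis, from 0) by condition, with a point for each sample and a bar for the mean ± SD (n = 3 for tozasertib, 4 for etoposide and 4 for DMSO). In all 10 panels the drug-treated samples sit below the DMSO samples, and CDT1 shows the widest separation, with 5.21 to 5.97 CPM for tozasertib, 9.20 to 11.5 CPM for etoposide and 42.2 to 54.7 CPM for DMSO.

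CDT1 escorts the MCM ring to the origin and is held to G1 by its destruction in S phase. It stood at 5.97, 5.87 and 5.21 CPM with tozasertib, at 11.3, 10.3, 11.5 and 9.20 CPM with etoposide, and at 54.7, 46.3, 50.3 and 42.2 CPM with DMSO. The 3 groups formed separate bands, with the highest tozasertib sample below the lowest etoposide sample. CDT1 was 8.49-fold lower with tozasertib (log2 fold change -3.09 ± 0.11 SE, edgeR adjusted p = 1.87e-10) and 4.57-fold lower with etoposide (-2.19 ± 0.10, adjusted p = 7.92e-10). Only 0.44% of all genes tested had a lower log2 fold change than CDT1 in the tozasertib comparison, and 1.37% in the etoposide comparison. Within DMSO, CDT1 and geminin were highest in replicate 1, whereas ORC1 was lowest there. The 3 differ in length, with main transcripts of 2664, 1263 and 3121 bases, and the part of the length trend of that sample in this was not tested.

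CDC6 is the ATPase that joins ORC at the origin and closes the loading platform. It was at 10.2, 10.4 and 9.38 CPM with tozasertib, at 18.7, 19.5, 19.4 and 16.9 CPM with etoposide, and at 54.5, 54.1, 56.3 and 59.2 CPM with DMSO. Replicates were tight, with a gap between tozasertib and etoposide as well as between etoposide and DMSO. CDC6 fell 5.61-fold with tozasertib (log2 fold change -2.49 ± 0.08 SE, adjusted p = 3.59e-11) and 3.00-fold with etoposide (-1.59 ± 0.06, adjusted p = 3.95e-10). Most CDC6 reads were assigned to a long transcript, CDC6-201 (4564 bases), and a shorter one, CDC6-207 (1948 bases), and 0 to 8.77% in a sample to CDC6-204 (696 bases). CDC6-201 took 50.6 ± 3.2% of them with tozasertib, 46.5 ± 3.3% with etoposide and 49.0 ± 4.9% with DMSO (SD), so the ranges overlapped while the gene as a whole fell.

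The start regions of these genes are shown because E2F sites, bound by the factors that switch on genes for S phase, are a known feature of MCM and loading factor promoters. RefSeq promoters on GRCh38.p14 (250 bases before to 50 after the start) were matched for 8 of the 10 genes, and MCM4 and MCM5 were not in the table. The words searched on both strands as E2F sites were TTTCCCGC, TTTGGCGC, TTTGCCGC and TTTCGCGC, which can overlap on opposite strands. At least 1 stood in 6 of 8 licensing promoters (MCM2, MCM3, MCM6, MCM7, CDC6 and CDT1), and in 3.31% of all 35116 promoters of that length. It also stood in 3 of 11 among other ORC subunits and loading aids (ORC3, MCMBP and MCM8). Of these, MCMBP and MCM8 were called lower and ORC3 higher with both drugs. Each licensing gene was scored on its first listed promoter alone. A gene of the other list counted if any of its listed promoters held a word, so the 2 counts are not strictly alike. The shares over all promoters are per promoter, not per gene. GMNN and ORC1 held none of the E2F words in the window. The CCAAT box (CCAAT, either strand) stood in 5 of 8 and in 34.6% of all promoters, and the CHR element (TTTGAA, either strand) in 0 of 8 and in 15.2% of all. These are matches of letters, not sites shown to be bound. Of the 4 regions below, 170 bases before to 30 after the start on the gene's strand, MCM6 belongs to the MCM gene that fell most, MCM2 to one in the middle, and CDC6 and CDT1 to the loading factors. Capitals mark the E2F words.

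MCM2, chr3:127598241-127598440, plus strand: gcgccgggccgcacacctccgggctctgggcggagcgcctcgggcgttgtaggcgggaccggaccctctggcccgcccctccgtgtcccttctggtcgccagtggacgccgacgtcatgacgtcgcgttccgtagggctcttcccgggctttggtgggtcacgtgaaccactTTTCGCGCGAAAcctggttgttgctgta
MCM6, chr2:135876414-135876613, minus strand: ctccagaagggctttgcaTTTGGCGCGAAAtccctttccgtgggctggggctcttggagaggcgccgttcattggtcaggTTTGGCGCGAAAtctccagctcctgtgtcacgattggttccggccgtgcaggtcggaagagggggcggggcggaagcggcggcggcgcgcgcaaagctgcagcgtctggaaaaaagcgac
CDC6, chr17:40287709-40287908, plus strand: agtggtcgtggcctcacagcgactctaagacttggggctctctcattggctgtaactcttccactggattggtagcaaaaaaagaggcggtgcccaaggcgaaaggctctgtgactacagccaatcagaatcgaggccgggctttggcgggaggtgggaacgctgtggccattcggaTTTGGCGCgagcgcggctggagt
CDT1, chr16:88803619-88803818, plus strand: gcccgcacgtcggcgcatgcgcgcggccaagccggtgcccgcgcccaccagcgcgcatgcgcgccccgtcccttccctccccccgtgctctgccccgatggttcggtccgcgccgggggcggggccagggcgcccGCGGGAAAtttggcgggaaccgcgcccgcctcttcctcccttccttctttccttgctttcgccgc

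In MCM6 the capitals form 2 copies of a block, beginning 152 and 90 bases before the start. Each is a TTTGGCGC overlapped on the opposite strand by TTTCGCGC. MCM2 carries 1 such overlapped block, of TTTCGCGC on both strands, beginning at base 3 after the start. CDC6 holds a single TTTGGCGC from base 8, and CDT1 a single TTTCCCGC on the opposite strand from 35 bases before the start. CDT1, with 1 word, and ORC1, with none, fell further than MCM6, with 4 in 2 overlapped blocks. Only the exact spellings given above were searched, and a relation between words and falls was not tested.

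ORC1 is the ORC subunit whose protein is degraded and remade in each human cell cycle, while the others are held more steadily. ORC1 was the least abundant of the 10 genes, at 4.57, 4.23 and 2.63 CPM with tozasertib, at 5.56, 6.73, 6.21 and 3.97 CPM with etoposide, and at 21.1, 23.3, 25.7 and 27.7 CPM with DMSO. The drug groups overlapped each other and lay far below DMSO. ORC1 was 6.37-fold lower with tozasertib (log2 -2.67 ± 0.20 SE, adjusted p = 1.11e-07) and 4.34-fold lower with etoposide (-2.12 ± 0.17, adjusted p = 2.57e-07).

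The rest of the complex did not follow ORC1 as a block. Of 11 other ORC subunits and loading aids, 8 were called lower and 1 higher with tozasertib, and the same numbers were called with etoposide, with median log2 fold changes of -0.33 and -0.31. Over all genes tested, 29.9% were called higher with tozasertib, 27.7% with etoposide and 5.67% in tozasertib against etoposide, beside the 29.4%, 30.7% and 5.45% called lower. ORC6, the subunit most loosely tied to the core, fell with both drugs (-1.79 ± 0.11 and -1.29 ± 0.10). ORC3 was the 1 gene called higher, by 0.24 ± 0.07 with tozasertib and 0.27 ± 0.06 with etoposide (adjusted p = 0.0072 and 0.00221), against 8 called lower. ORC2 fell slightly (-0.33 and -0.31), ORC4 was called lower with etoposide only (-0.26, adjusted p = 0.0017, against -0.12 and 0.123 with tozasertib; the difference between the drugs was 0.14, adjusted p = 0.172), and ORC5 was at 0.04 and 0.01 and was called in neither. The smallest adjusted p-values in the list belonged to MCMBP, an MCM-binding chaperone (-1.16 ± 0.05 with tozasertib and -1.17 ± 0.05 with etoposide), and MCM8, an MCM relative that acts in repair (-1.34 ± 0.07 and -1.02 ± 0.06), followed by ORC6 with tozasertib and the histone chaperone NAP1L1 with etoposide (-0.83 ± 0.06).

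Geminin, the inhibitor that binds CDT1 once S phase has begun, fell together with its target. GMNN was at 9.17, 8.39 and 7.48 CPM with tozasertib, at 11.3, 12.0 and 11.4 CPM in etoposide replicates 1 to 3 and 10.7 CPM in replicate 4, and at 44.4, 33.1, 38.1 and 36.7 CPM with DMSO. The drug groups stood close together, without overlap, well under the lowest DMSO sample. It was 4.55-fold lower with tozasertib (log2 fold change -2.18 ± 0.11 SE, adjusted p = 2.16e-09) and 3.35-fold lower with etoposide (-1.74 ± 0.09, adjusted p = 5.33e-09).

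The balance of geminin to CDT1 RNA did not pass a test between any pair of groups, at group sizes that leave little room for one. In TPM, transcript abundance corrected for length and summed to genes, GMNN over CDT1 was 5.63, 5.02 and 5.54 with tozasertib, 3.99, 4.33, 3.17 and 4.30 with etoposide, and 2.70, 2.32, 2.59 and 3.23 with DMSO. The 3 tozasertib samples were above all others, while the lowest etoposide sample was just under the highest DMSO sample. The mean log2 ratio was 2.43 ± 0.09 with tozasertib, 1.97 ± 0.21 with etoposide and 1.43 ± 0.20 with DMSO (SD). The differences were 1.00 for tozasertib and 0.54 for etoposide against DMSO, and 0.46 for tozasertib against etoposide. Each gave p = 0.0571 in a two-sided exact permutation test, and 0.0571 after adjustment over the 3 comparisons. With 3 against 4 samples 0.0571 is the smallest p the design allows, so the tozasertib comparisons could not pass 0.05. With 4 against 4 it is 0.0286. These are RNA ratios, and both proteins are controlled by degradation.

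The 6 helicase subunits are needed in equal number in the ring, and their RNAs fell together but by different amounts. MCM6 fell most, at 17.1, 17.4 and 14.4 CPM with tozasertib, 23.6, 26.9, 25.9 and 21.9 CPM with etoposide, and 87.9, 84.1, 90.05 and 92.2 CPM with DMSO. It was 5.43-fold lower with tozasertib (log2 fold change -2.44 ± 0.09 SE, adjusted p = 2.01e-10) and 3.61-fold lower with etoposide (-1.85 ± 0.08, adjusted p = 5.92e-10), and its 3 groups did not overlap. MCM4 was at 40.5, 36.9 and 35.5 CPM with tozasertib, 54.8, 60.8, 56.01 and 54.4 CPM with etoposide, and 162, 163, 162 and 155 CPM with DMSO. MCM4 was thus 4.27-fold and 2.84-fold lower (-2.09 ± 0.07 and -1.51 ± 0.06). MCM2, whose tail also carries histones at the fork, was at 50.4, 53.2 and 47.2 CPM with tozasertib, 62.6, 68.7, 74.5 and 66.6 CPM with etoposide, and 199.6, 190.1, 203 and 189 CPM with DMSO. Its log2 fold changes were -1.96 ± 0.07 and -1.52 ± 0.06, again with 3 separate bands.

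MCM5, which forms the gate of the ring with MCM2, averaged 33.1 ± 1.9 CPM with tozasertib, 39.8 ± 1.8 CPM with etoposide and 117 ± 8.1 CPM with DMSO (SD), log2 fold changes of -1.82 ± 0.07 and -1.56 ± 0.06 (SE). MCM3 and MCM7 fell least. MCM3 averaged 47.9 ± 1.8, 53.0 ± 2.4 and 118 ± 1.8 CPM in the same order, 2.46-fold lower with tozasertib and 2.22-fold lower with etoposide (-1.30 ± 0.06 and -1.15 ± 0.05). MCM7 was at 119, 117 and 106 CPM with tozasertib, 123, 126, 119 and 105 CPM with etoposide, and 322, 279.8, 295 and 277 CPM with DMSO. The 2 drug groups overlapped, and the log2 fold changes were -1.36 ± 0.08 and -1.31 ± 0.07. The adjusted p-values of MCM2, MCM3, MCM4, MCM5 and MCM7 in both comparisons were between 4.78e-11 and 9.78e-09.

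Levels can be set against each other only per length, here in TPM over protein-coding transcripts. MCM7 was the highest and MCM6 the lowest of the 6 subunits in all 11 samples. The sum of the 6 was 141 to 156 TPM with tozasertib, 165 to 185 TPM with etoposide and 396 to 456 TPM with DMSO. MCM7 made up 40.9 ± 0.9% of it with tozasertib, 36.8 ± 0.6% with etoposide and 35.9 ± 1.4% with DMSO (SD), and MCM6 5.50 ± 0.27%, 6.74 ± 0.28% and 8.77 ± 0.64%. MCM3 took 16.5 ± 0.4%, 15.1 ± 1.0% and 12.6 ± 0.1%, and on this coding sum it was the second highest in the 3 tozasertib samples, where MCM2 was second in the 4 DMSO samples. MCM4 and MCM5 exchanged places among the 3 tozasertib samples, while MCM4 was above MCM5 in every etoposide and DMSO sample. The ratio of MCM7 to MCM6 was 7.21 to 7.66 with tozasertib, 5.23 to 5.64 with etoposide and 3.60 to 4.65 with DMSO, so the 3 ranges did not overlap. These values depend on which transcripts are summed. Over all transcripts, retained introns included, the ratio of MCM7 to MCM6 was 11.4 to 12.4 with tozasertib, 7.004 to 8.78 with etoposide and 4.16 to 5.07 with DMSO, and the MCM7 share was 50.8 ± 1.6%, 43.3 ± 2.7% and 36.9 ± 1.2%. The ends of the order, MCM7 and MCM6, held in all 11 samples on both sums, but over all transcripts MCM4 was second in tozasertib replicate 2, in the 4 etoposide samples and in DMSO replicates 2 and 3. The shares are a description and were not tested.

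**Figure D2:**
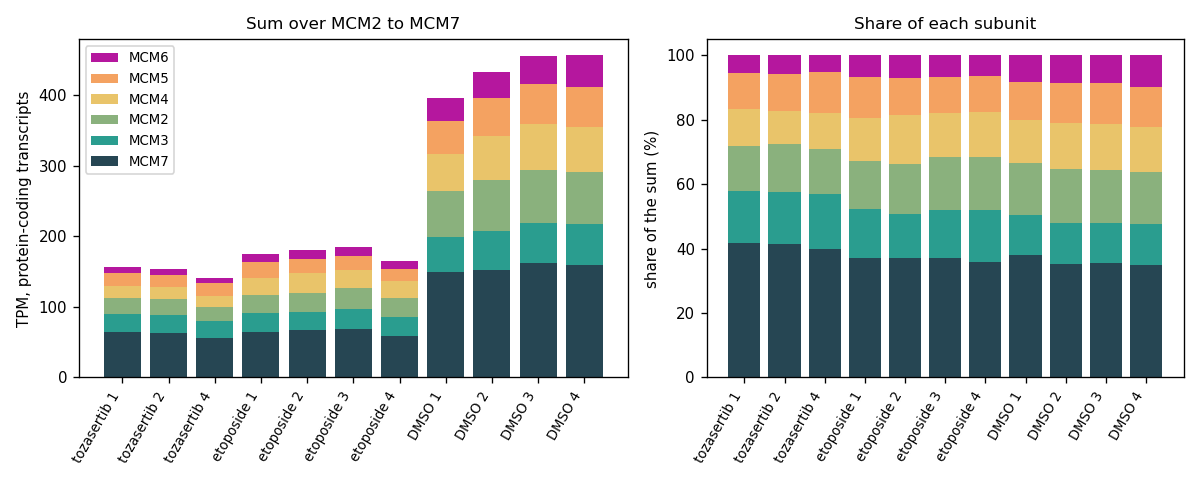
Protein-coding TPM of MCM2 to MCM7, stacked for each sample (left), and the share of each subunit in that sum in percent (right), with tozasertib, etoposide and DMSO samples from left to right. The sum is 141 to 156 TPM in tozasertib samples, 165 to 185 TPM in etoposide samples and 396 to 456 TPM in DMSO samples, and the MCM6 band is thinnest in tozasertib samples.

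For MCM7 the transcript assignment matters. MCM7 lies on the minus strand of chromosome 7 (100092233 to 100101940, GRCh38), and its main coding transcript MCM7-201 starts at 100101397. A short transcript annotated as retained intron, MCM7-207 (776 bases), begins downstream of that start, at 100100473. MCM7-207 stood at 27.5, 23.5 and 25.3 TPM with tozasertib, 20.9, 21.3, 14.6 and 15.9 TPM with etoposide, and 6.80, 10.4, 9.80 and 11.1 TPM with DMSO. Its level was thus higher in every drug-treated sample than in any DMSO sample, opposite to the gene, and its share of MCM7 reads was 8.19 ± 0.74% with tozasertib, 5.90 ± 0.79% with etoposide and 1.40 ± 0.24% with DMSO. MCM7-201 averaged 60.5 ± 4.0 TPM with tozasertib, 62.9 ± 4.4 TPM with etoposide and 155 ± 5.0 TPM with DMSO. All retained-intron transcripts of MCM7 together took 17.4 to 18.6% of its reads with tozasertib, 7.62 to 16.6% with etoposide and 3.49 to 5.46% with DMSO. Counting protein-coding transcripts alone, the MCM7 log2 fold changes were -1.52 with tozasertib and -1.39 with etoposide. Transcript shares are estimates from single-end reads and were not tested.

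MCM3 showed a shift between 2 coding transcripts that differ at the 5′ end. MCM3-205, the main one, starts at 52284742 on the minus strand of chromosome 6, and MCM3-206 starts upstream of it, at 52284881. MCM3-206 took 26.0, 27.1 and 25.8% of MCM3 reads with tozasertib, 16.1, 22.6, 18.0 and 12.4% with etoposide, and 4.07, 7.93, 10.8 and 10.02% with DMSO. The 3 groups did not overlap in share. In level, MCM3-206 was at 6.15 ± 0.39 TPM with tozasertib, 4.23 ± 0.92 TPM with etoposide and 4.13 ± 1.72 TPM with DMSO, so etoposide and DMSO overlapped, while MCM3-205 was at 17.4 ± 0.7, 20.7 ± 1.8 and 44.8 ± 3.4 TPM. The lower MCM3 total lay in MCM3-205. By comparison, MCM2-201 took at least 98.5% and MCM6-201 at least 99.6% of reads in all 11 samples.

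**Figure D3:**
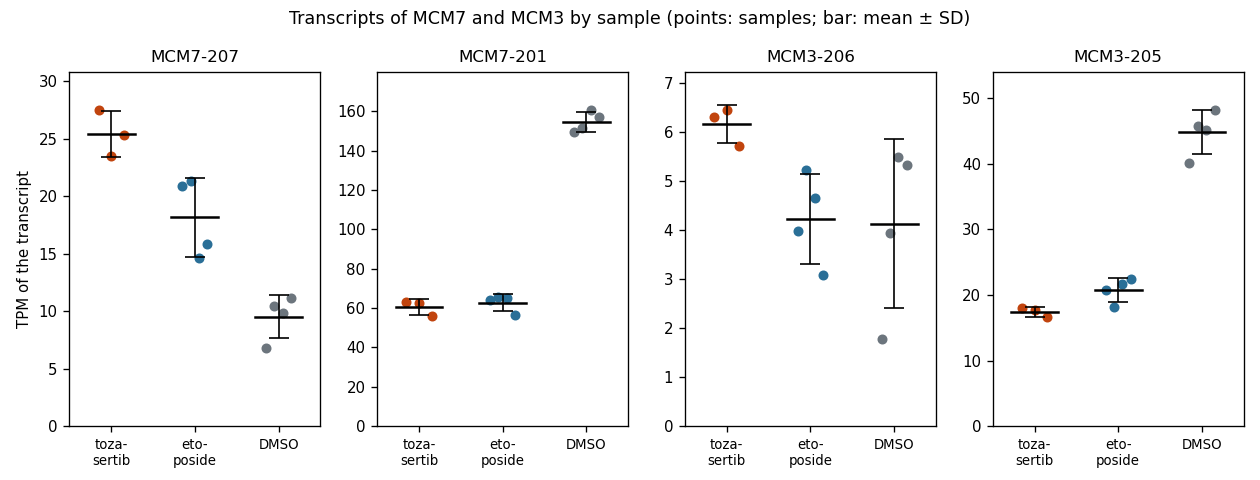
TPM (vertical axes, from 0) of MCM7-207, MCM7-201, MCM3-206 and MCM3-205 by condition, with a point for each sample and a bar for the mean ± SD (n = 3 for tozasertib, 4 for etoposide and 4 for DMSO). MCM7-207 averages 25.4 TPM with tozasertib, 18.2 TPM with etoposide and 9.53 TPM with DMSO, whereas MCM7-201 and MCM3-205 are highest with DMSO.

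Set directly against each other, tozasertib left lower levels than etoposide for most of these genes, and the loading factors differed most. Of the 10 genes, 7 were called lower and 0 higher in tozasertib against etoposide, where 5.45% of all genes tested were called lower, and the median log2 fold change was -0.50, against 0.01 over all genes. CDC6 differed by -0.90 ± 0.07 (SE, adjusted p = 4.04e-06) and CDT1 by -0.89 ± 0.11 (adjusted p = 0.000178). Among the helicase subunits, MCM6 differed by -0.59 ± 0.09, MCM4 by -0.59 ± 0.06 and MCM2 by -0.44 ± 0.07 (adjusted p = 0.000683, 5.14e-05 and 0.00106). GMNN (-0.44 ± 0.11, adjusted p = 0.0166) and MCM5 (-0.26 ± 0.07, adjusted p = 0.0274) passed by less. The doses and targets of the drugs differ, so this compares the 2 treatments as given. The 6 dividing-cell markers summed to 130.0 to 185 CPM with tozasertib, 233 to 313 CPM with etoposide and 984 to 1104 CPM with DMSO, moving the same way, and their part in the difference was not tested.

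MCM7, ORC1 and MCM3 were not called. MCM7 differed by -0.05 with a 95% interval of -0.22 to 0.11, and MCM3 by -0.15 with an interval of -0.27 to -0.03 (adjusted p = 0.728 and 0.112). The interval of ORC1 was wide, -0.99 to -0.12 around -0.55 (adjusted p = 0.0992), and its groups overlapped through etoposide replicate 4, at 3.97 CPM. Single libraries decided several of these calls. MCM5 was not called without tozasertib replicate 1 (adjusted p = 0.103) or 4 (0.118), or without etoposide replicate 2 (0.0572) or 3 (0.0865), and GMNN was not called without tozasertib replicate 2 (0.0614) or 4 (0.0773). ORC1 was called without etoposide replicate 4 (0.038), and MCM3 without DMSO replicate 1 (0.0459). The number of all genes called moved as well. It was 1895 with all samples, and 1036 without tozasertib replicate 1, 1075 without tozasertib replicate 2, 1264 without etoposide replicate 3 and 3399 without DMSO replicate 1. DESeq2 called 1035 genes higher and 1551 lower here, against 966 and 929 by edgeR.

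**Figure D4:**
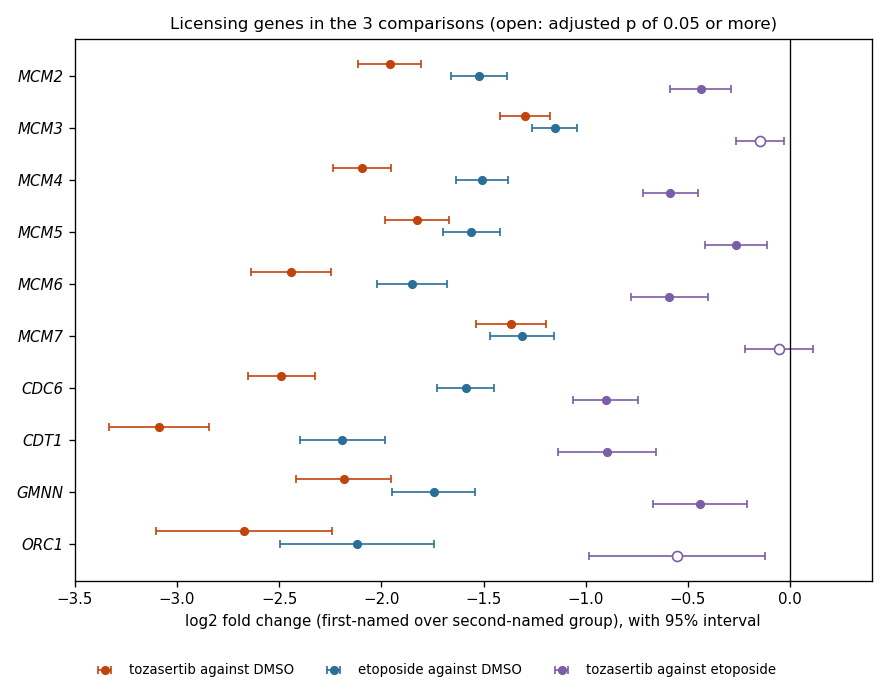
log2 fold change of each licensing gene (first-named over second-named group, horizontal axis) with its 95% interval in tozasertib against DMSO, etoposide against DMSO and tozasertib against etoposide. Filled points passed an adjusted p of 0.05 in edgeR, and open points (MCM3, MCM7 and ORC1 in tozasertib against etoposide) did not. Against DMSO, CDT1 lies furthest from 0, at -3.09 for tozasertib and -2.19 for etoposide.

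Genes that act after licensing fell alongside. All 18 of 18 genes of helicase activation and origin firing were called lower with each drug, with median log2 fold changes of -1.87 for tozasertib and -1.49 for etoposide. Of all genes tested, 29.4% were called lower with tozasertib, 30.7% with etoposide and 5.45% in tozasertib against etoposide. The smallest adjusted p-values were those of GINS3, a subunit of the GINS complex (-1.97 ± 0.08 with tozasertib and -1.57 ± 0.07 with etoposide), TIMELESS, a fork protection factor (-1.72 ± 0.08 and -1.54 ± 0.07), and DBF4, the activating subunit of the CDC7 kinase that fires loaded MCM rings (-1.62 ± 0.07 and -1.30 ± 0.07). In tozasertib against etoposide, 12 of 18 were called lower and 0 higher. Of 24 polymerases and fork proteins, 24 were called lower with tozasertib and 22 with etoposide (medians -1.46 and -1.22), and 5 in tozasertib against etoposide. Among them, RFC5 and RFC4, subunits of the clamp loader, were at -1.67 ± 0.07 and -1.80 ± 0.09 with tozasertib and at -1.55 ± 0.07 and -1.53 ± 0.08 with etoposide. The flap nuclease FEN1 was at -2.12 ± 0.10 with tozasertib, and POLD1, the catalytic subunit of polymerase delta, at -1.35 ± 0.07 with etoposide.

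The list of genes that control the stability of CDT1, geminin and CDC6 was mixed. Of its 15 genes, 11 were called lower and 1 higher with tozasertib, and 10 lower and 1 higher with etoposide (medians -0.79 and -0.56), where 29.4% and 30.7% of all genes were called lower and 29.9% and 27.7% higher. In tozasertib against etoposide 6 were called lower, where 5.45% of all genes tested were. CDC20, the mitotic activator of the anaphase-promoting complex (APC/C) that marks geminin for destruction, was at -3.27 ± 0.16 with tozasertib and -2.46 ± 0.14 with etoposide. FBXO5, an APC/C inhibitor, was at -2.23 ± 0.10 and -1.85 ± 0.09, and CCNF, the cyclin F that targets CDC6 for destruction, at -2.24 ± 0.11 and -1.53 ± 0.10. These members that fell include both inhibitors and promoters of degradation. CUL4B, a scaffold of the ligase that destroys CDT1 in S phase, was called higher, by 0.93 ± 0.07 with tozasertib and 1.01 ± 0.07 with etoposide, and its paralogue CUL4A was at -0.08 and -0.10 and was called in neither. All 6 of 6 dividing-cell markers were called lower in the 3 comparisons. The shares over all genes were 29.4% with tozasertib, 30.7% with etoposide and 5.45% in tozasertib against etoposide. Those with the smallest adjusted p-values against DMSO were LMNB1, the lamin B1 gene (-2.90 ± 0.11 with tozasertib and -2.18 ± 0.09 with etoposide), CCNB1, mitotic cyclin B1 (-2.39 ± 0.12 and -1.61 ± 0.10), and BUB1, a spindle checkpoint kinase (-2.65 ± 0.14 and -2.08 ± 0.12).

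**Figure D5:**
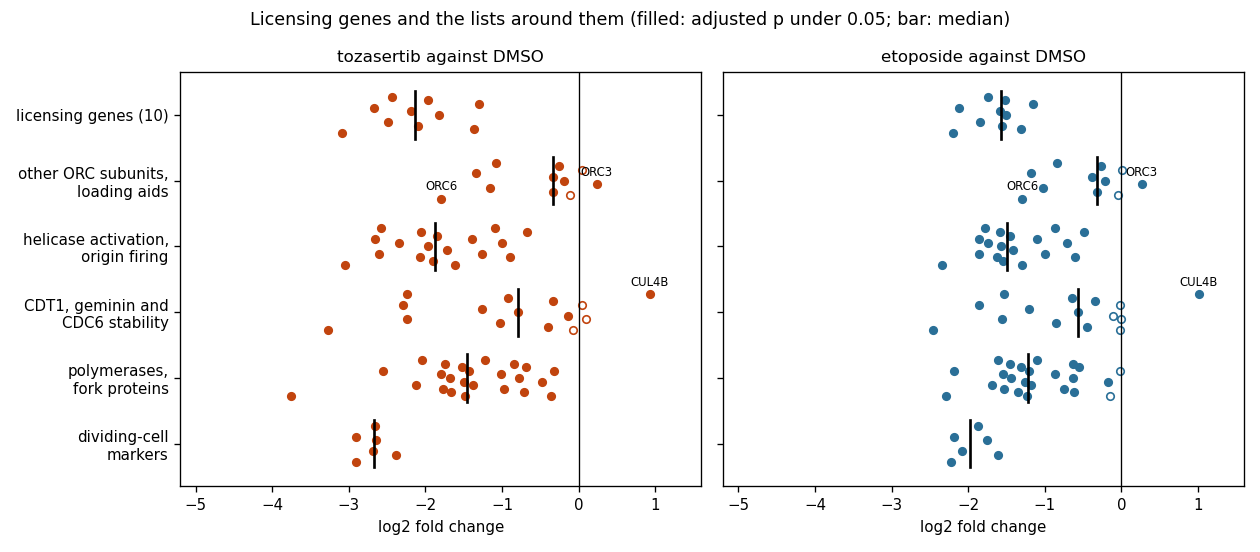
log2 fold change of each gene (points, horizontal axis) for the licensing genes and 5 lists around them, in tozasertib against DMSO (left) and etoposide against DMSO (right). Filled points had an adjusted p under 0.05 in edgeR and bars mark list medians, which are -2.14 and -1.57 for the licensing genes but -0.33 and -0.31 for other ORC subunits and loading aids, where ORC3 lies above 0 and ORC6 at -1.79 and -1.29.

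The 5 protein-coding genes whose log2 CPM most resembled the mean standardised profile of MCM2 to MCM7 over the 11 samples, among 13529 candidates, were ZWINT, a kinetochore protein (Pearson r = 0.9987), TCF19 (0.9984), CENPU, a centromere protein (0.9972), JADE1, a scaffold of a histone acetyltransferase complex (0.9971), and PLP2, a membrane protein (0.9967). These correlations mostly reflect the 3 group means that all genes share and are given as a description. ZWINT was 6.64-fold lower with tozasertib and 4.67-fold lower with etoposide, and TCF19 8.78-fold and 5.40-fold lower. Among the licensing genes themselves, r with the same profile was between 0.9791 for CDC6 and 0.9985 for MCM5, where the helicase subunits are part of the profile they are compared with.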

How the data were processed

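RNA was purified on columns, enriched for poly(A), made into strand-marking libraries and sequenced as single-end reads. GRCh38, Salmon 1.9.0 and cutadapt 4.7 are given in the processing notes of the submitters, beside DESeq2 1.40.2 and R 4.4.2, whereas the study's methods name STAR. The transcript release is not given in the sources used here. The authors deposited, per transcript and sample, the estimated count, TPM and effective length from Salmon, without pooling replicates. The deposited TPM values are per effective length and sum to the same total in each sample. No tozasertib replicate 3 was analysed here.

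Estimated counts were summed to genes with GENCODE 44 (251208 of 251645 transcripts matched, the rest with at most 0.163% of reads) and rounded. Genes were filtered by filterByExpr, scaled by TMM and tested with edgeR 4.0.16 (glmQLFit and glmQLFTest, R 4.3.3) in 1 fit of all 11 samples with a mean per group and no block, called at an adjusted p under 0.05 (Benjamini-Hochberg over 17039 genes). The fit was tested on simulated data. Counts of every replicate pair differed by more than those of 1 library in 2 copies would (chi-square per degree of freedom of 3.99 to 70.7 over 15 pairs), which does not show that they were separate cultures. Each was counted as a sample, as labelled. The GMNN to CDT1 ratio was tested by exact permutation (scipy). Alternatives were DESeq2 1.42.0, other scalings, no filter, length-scaled counts, protein-coding transcripts alone, the compared groups alone, a replicate block and leaving samples out. Of 31-base words in member transcripts, at most 5.00% (CDT1) also occurred in other genes' transcripts, and 0 for MCM2, MCM6, MCM7 and GMNN. Transcript TPM depends on how Salmon divides reads between overlapping transcripts. Genes named were the 10 members, the 3 with the smallest adjusted p of each list and drug, list members called against the majority, and the 5 of most similar profile, while ORC2, ORC4, ORC5 and CUL4A were added after their values were seen. The members and lists were chosen with earlier results of these data known.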

Additional observations from a re-analysis of the deposited data

Results flagged for a closer look

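MCM4 in DMSO replicate 4, at 155 CPM, lay below the other 3 DMSO samples by 0.858 of the range of the group. It was the 1 value that stood apart among 22 groups of 4 samples examined (10 genes and the GMNN to CDT1 ratio, in etoposide and in DMSO), where chance flags about 1 in 20. Without that sample the MCM4 log2 fold change was -2.10 for tozasertib and -1.53 for etoposide, against -2.09 and -1.51 with it.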

How the results depend on the processing

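Against DMSO, all 10 licensing genes were called lower with each drug under all 20 alternatives. The log2 fold change of MCM7 moved most, between -1.52 (protein-coding transcripts alone) and -1.08 (length-scaled counts) with tozasertib, and between -1.39 and -1.10 with etoposide. In tozasertib against etoposide, 5 to 9 of the 10 were called lower, 5 without tozasertib replicate 4 and 9 with DESeq2, which added MCM3 and ORC1 (adjusted p = 0.0145 and 0.0279). MCM7 turned to 0.0192 with length-scaled counts (adjusted p = 0.939), MCM5 was not called there (0.076), and ORC1 was called with no filter (0.00315). The genes called in that comparison numbered 1895, and 1124 with length-scaled counts, 3552 with the 2 compared groups alone and 3795 without DMSO replicates 1 and 4 together, while leaving out each sample in turn gave 1036 to 3399. The fits of 2 groups and those leaving samples out hold fewer samples, and for length-scaled counts the cause was not tested. The GMNN to CDT1 difference kept its direction throughout, at 0.93 to 1.09 for tozasertib and 0.47 to 0.64 for etoposide against DMSO when samples were left out.

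With replicate number as a block, 10, 10 and 6 licensing genes were called in tozasertib against DMSO, etoposide against DMSO and tozasertib against etoposide, MCM5 being the 1 call of the fit without a block that was not made (adjusted p = 0.0522), and 9806, 9858 and 1619 of all genes. Over all genes, deviations of same-numbered samples were weakly related (r = -0.10 to 0.23 over 10 pairs, 2 of them over 0.1). Those of differently numbered samples were at r = -0.21 to 0.16 over 30 pairs, 2 of them over 0.1. The numbers were not taken to pair the samples, though these values cannot exclude that they do. Among the licensing genes, 10 of 10 lay below their group mean in tozasertib replicate 4 and 10 of 10 in etoposide replicate 4, against 7 of 10 in DMSO replicate 4. The share of all genes below their group mean in these samples was not computed, so a shift of the whole library cannot be told apart.

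ORC1 in the drug groups rests on 97 to 268 reads a sample, which limits what can be said of its difference between the drugs.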

Other observations

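MCM4-209, a coding transcript of 1981 bases, was assigned 69.6, 0 and 0 reads in tozasertib replicates 1, 2 and 4, against 124 to 202 reads in etoposide samples and 122 to 329.7 reads in DMSO samples. Its share of MCM4 reads was 7.17 to 10.8% with etoposide and 2.64 to 6.31% with DMSO. The values are estimates of how reads divide between overlapping transcripts and were not tested.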
